A study of Mus musculus with 96 samples.

Results

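Hippocampal microglia of old control mice were compared with those of young control mice at the 6 h time point of a study of abdominal surgery and age. The comparison rests on 12 of the 96 libraries of the study, 8 from old and 4 from young animals, chosen by the age, treatment, time and region in their titles and matched to the columns of the count table by library name. Old animals were 20 to 22 months of age and young animals 3 to 5 months. All were wild type (WT), and all carried the treatment label control. What the control animals underwent and their sex are not given in the labels. Each library was made from 1000 sorted cells that were positive for CD11b and Fcrls, a myeloid integrin and a microglial receptor, and negative for Ly6C, a marker of blood monocytes. The library names give the hippocampus and the hemisphere library of an animal one sort number, so each of the 12 libraries stands for 1 animal. Further animals of the same 2 ages gave values to set beside this comparison. These were 7 old and 4 young mice after surgery at 6 h, 8 old and 4 young controls at 48 h, and the hemispheres of the same 12 animals.

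Microglia are the resident macrophages of the brain. They survey the tissue with receptors such as P2RY12 and CX3CR1, clear debris through lysosomes, and present antigen on MHC molecules when activated. With age some of them are known to take up an activated profile with high Apoe, Clec7a, Cst7 and Lgals3, also described around amyloid plaques, while others express interferon-stimulated genes or MHC genes. Because RNA of sorted cells was measured in bulk, a larger share of cells with such a profile and more RNA per cell cannot be told apart here.

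The cells carried the markers of microglia at both ages. All 20 genes of a homeostatic microglia list passed the count filter, and their summed level was 12424 to 19850 CPM in old and 9455 to 20908 CPM in young libraries. CPM are counts per 1e6 of the effective library size, which is the total over the genes kept by the filter times the TMM normalization factor. The libraries held 1874168 to 3497144 estimated counts, but a set of 11 gene models, led by the predicted genes Gm26870 (26.1% of the table) and Gm10800 (16.7%), took 68.1% to 74.2% of the counts in old and 51.3% to 71.1% in young libraries. Young replicates 1 and 4 stood apart. A value of 1 was rare in them: among genes with values of 1, 2 or 3, it was found in 4.11% to 9.93% of genes there and in 53.7% to 64.4% in the other 10 libraries. They were also the 2 libraries with 51.3% and 54% of counts in the largest models, against at least 67% elsewhere. Their TMM factors were 1.409 (replicate 1) and 1.607 (replicate 4), against 0.7958 to 1.073 in the other 10 libraries. These 2 libraries are called stepped libraries below, and how their values arose is not given. By sort number, old replicates 2, 3 and 4 lay among the young animals (42 to 54). Old replicate 1 lay before them (40) and old replicates 5 to 8 after them (56 to 72). Sorted among or after refers below to these numbers, and the labels do not say whether they give the order of sorting. Y-linked genes had counts in all 12 libraries and Xist at most 22.

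Few single genes passed the threshold between the ages. Of 13703 genes tested, edgeR's quasi-likelihood test called 8 at a Benjamini-Hochberg (BH) adjusted p below 0.05 (0.0584%), 5 higher (0.0365%) and 3 lower (0.0219%) in old microglia. By unadjusted p, used below for counts at p under 0.05 before adjustment, there were 1145 genes (8.36%), 623 higher (4.55%) and 522 lower (3.81%). In 72 genes (0.525%) all 8 old libraries lay above all 4 young ones, and in 39 (0.285%) all lay below. The genes that rose were Ildr2, Naalad2, Upk1b, Tnfsf13b and Lyz2, and those that fell were Tgfb2, Dag1 and Upf3b. Lyz2, Upk1b and Tgfb2 followed from the rule for naming genes, and the other 5 were named after their values were seen.

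**Figure D1:**
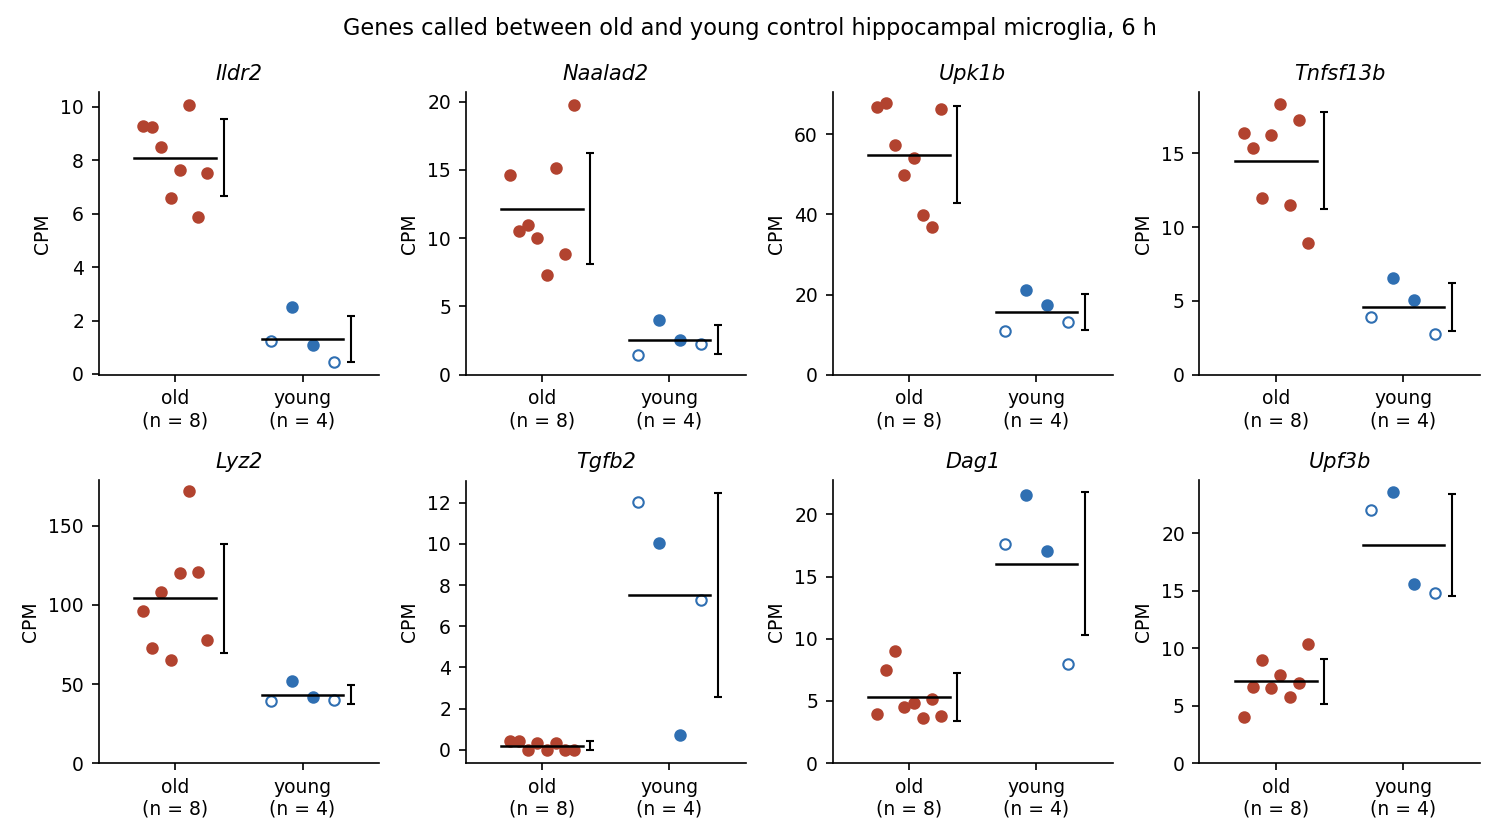
Levels in CPM of the 8 called genes in each control hippocampal library of 6 h, old (red, left) beside young (blue, right), with the mean (line) and SD (bar at the side). Open points are the stepped young replicates 1 and 4. The groups overlap in Dag1, where young replicate 4 (7.96 CPM) lies below the highest old library (8.99 CPM), and in no other panel.

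Ildr2 encodes an immunoglobulin-domain membrane protein of the angulin family, which is known from tricellular cell contacts and lipid metabolism. Its level in old libraries ran from 5.88 to 10.1 CPM with a median of 8.06 CPM, against 1.24, 2.51, 1.09 and 0.455 CPM in young libraries. The lowest old library was above the highest young one. It rose by 2.68 ± 0.36 on the log2 scale (SE, edgeR BH 0.000966), and this rests on 16 to 28 counts per old and 2 to 6 per young library. The gene lies at chr1:166254139-166316823 on the plus strand of mm10. Its promoter, from RefSeq (GRCm38.p6, chr1:166253889-166254188, plus strand, 250 bases before to 50 after the start), is shown because this gene had the smallest p. The capitals mark an E box (CACGTG), present in 7.15% of all 32851 promoters of that table.
Ildr2: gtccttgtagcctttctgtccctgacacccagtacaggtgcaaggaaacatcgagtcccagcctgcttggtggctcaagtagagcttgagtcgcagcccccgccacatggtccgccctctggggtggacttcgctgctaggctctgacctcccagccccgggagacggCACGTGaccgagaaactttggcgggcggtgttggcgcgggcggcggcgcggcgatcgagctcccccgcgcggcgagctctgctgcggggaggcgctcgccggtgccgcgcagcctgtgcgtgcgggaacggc

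Naalad2, a membrane peptidase related to the enzyme that cleaves N-acetylaspartylglutamate, had 7.29 to 19.8 CPM in old libraries (median 10.8 CPM), against 1.45, 4.01, 2.54 and 2.28 CPM in young ones. It rose by 2.29 ± 0.38 (edgeR BH 0.0099), with no overlap between the ages. Upk1b is a tetraspanin first known from bladder epithelium. Its old libraries ran from 36.7 to 67.7 CPM with a median of 55.8 CPM, and the young ones stood at 10.99, 21.1, 17.4 and 13.2 CPM. Every old library exceeded the highest young one, and the gene rose by 1.82 ± 0.30 (edgeR BH 0.0099).

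Tnfsf13b encodes BAFF, a cytokine of the TNF family that keeps B cells alive. It had 8.95 to 18.4 CPM in old libraries (median 15.8 CPM) and 3.94, 6.52, 5.07 and 2.73 CPM in young ones, and rose by 1.71 ± 0.33 (edgeR BH 0.0402). Lyz2 encodes the lysozyme of macrophages. It stood at 65.4 to 172 CPM in old libraries (median 102.2 CPM), against 39.2, 52.2, 41.6 and 39.8 CPM in young libraries. Neither gene overlapped between the ages. The genes lie at chr9:18321951-18402995 (Naalad2, minus strand), chr16:38773184-38800328 (Upk1b, minus strand), chr8:10006467-10039072 (Tnfsf13b, plus strand) and chr10:117277331-117282321 (Lyz2, minus strand). Lyz2 rose by 1.27 ± 0.24 (edgeR BH 0.0357), and reads it shares with its near-identical neighbour Lyz1 could be split between them.

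Tgfb2, a ligand of the TGF-beta receptors that microglia depend on, had 0 to 0.442 CPM in old libraries and 12.03, 10.04, 0.724 and 7.28 CPM in young libraries. That is 4 counts over all 8 old libraries and 112 over the 4 young ones, a ratio of 0.025 (exact 95% interval 0.0067 to 0.0659, counting error only), with a fitted log2 value of -4.96 ± 0.95 (edgeR BH 0.0387). Young replicate 3, with 2 counts, was close to the old range. Stepped young replicate 1 had the highest level, and the interval takes the values of stepped libraries as plain counts. Upf3b, a factor of nonsense-mediated mRNA decay, fell to 3.98 to 10.4 CPM in old libraries (median 6.79 CPM), against 22.0, 23.6, 15.6 and 14.8 CPM in young ones (-1.41 ± 0.27, edgeR BH 0.0387). Dag1, dystroglycan, a receptor for laminin, had 3.60 to 8.99 CPM in old libraries (median 4.68 CPM), against 17.6, 21.6, 17.0 and 7.96 CPM in young ones (-1.59 ± 0.29, edgeR BH 0.0336). On mm10 they lie at chr1:186622792-186705989 (Tgfb2), chrX:37091678-37110322 (Upf3b) and chr9:108204634-108263958 (Dag1), all on the minus strand. Of the other 14 members tested of a TGF-beta signalling list of 19, 11 had positive and 3 negative values and none was called or reached an unadjusted p below 0.05. The median of all 15 was 0.06, and -0.10 with 5 positive without the stepped libraries, so no direction is given. Among the members the receptor Tgfbr2 had 0.42 ± 0.22 and the signal carrier Smad7 0.54 ± 0.31.

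The calls depended on the libraries in the fit. Without the stepped young replicates 1 and 4, which leaves 8 old and 2 young controls (and without old surgery replicates 5 and 6 of the shared fit), there were 0 calls in edgeR (756 genes with p under 0.05 before adjustment), and all 8 kept their sign, with Ildr2 at 2.19 and Upk1b at 1.51. The median of all genes was 0.04 in that fit, with 53.8% positive, and -0.05 with 46.6% positive in the fit described next. Keeping only the 3 old animals whose sort numbers lay among those of the young mice also gave 0 calls (906 unadjusted) and 8 of 8 kept signs. Both fits have fewer animals, and over all genes fewer passed by unadjusted p (756 of 14209 and 906 of 13091, against 1145 of 13703). A fall in list counts in these fits, given below, does not by itself show dependence on the libraries left out. Without young replicate 1 alone, Ildr2 was the one remaining call, and without young replicate 3 the count was 19. It was 3 without old replicate 1, 5, 6 or 7, 4 without old replicate 3 and 5 without old replicate 2, and Ildr2, Naalad2 and Upk1b were called in each of the 8 fits that left out 1 old library. DESeq2 called 46 genes higher and 14 lower, among them 7 of the 8 (Tgfb2 received no adjusted p), and voom called 8. Called and not called refer below to the main edgeR fit. Of the genes named below as not called, DESeq2 called Apoe, Cst7, Clec7a, C4b, Cd74, H2-Aa, H2-K1, Lgals3bp and Ifi27l2a higher, among others. It called Dlg4 and Txnip lower. Without the count filter edgeR also called Cd74, H2-Aa and Cst7. The 8 genes were selected on these same libraries, and their kept signs carry no separate evidence.

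Genes of the activated profile of aged microglia lay mostly higher in old animals, with wide spread between them. Of 25 genes of a disease-associated microglia list, 21 were tested, 1 was called (Lyz2), and 12 were higher and 0 lower by unadjusted p, against 4.55% and 3.81% of all genes. Positive values were found in 20 of the 21, against 48.5% of all genes, and the median was 0.64, against -0.01 over all genes tested. Without the stepped libraries 5 of 23 members were higher by unadjusted p, with a median of 0.54, and with only the old animals sorted among the young 5 of 20, with a median of 0.48.

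**Figure D2:**
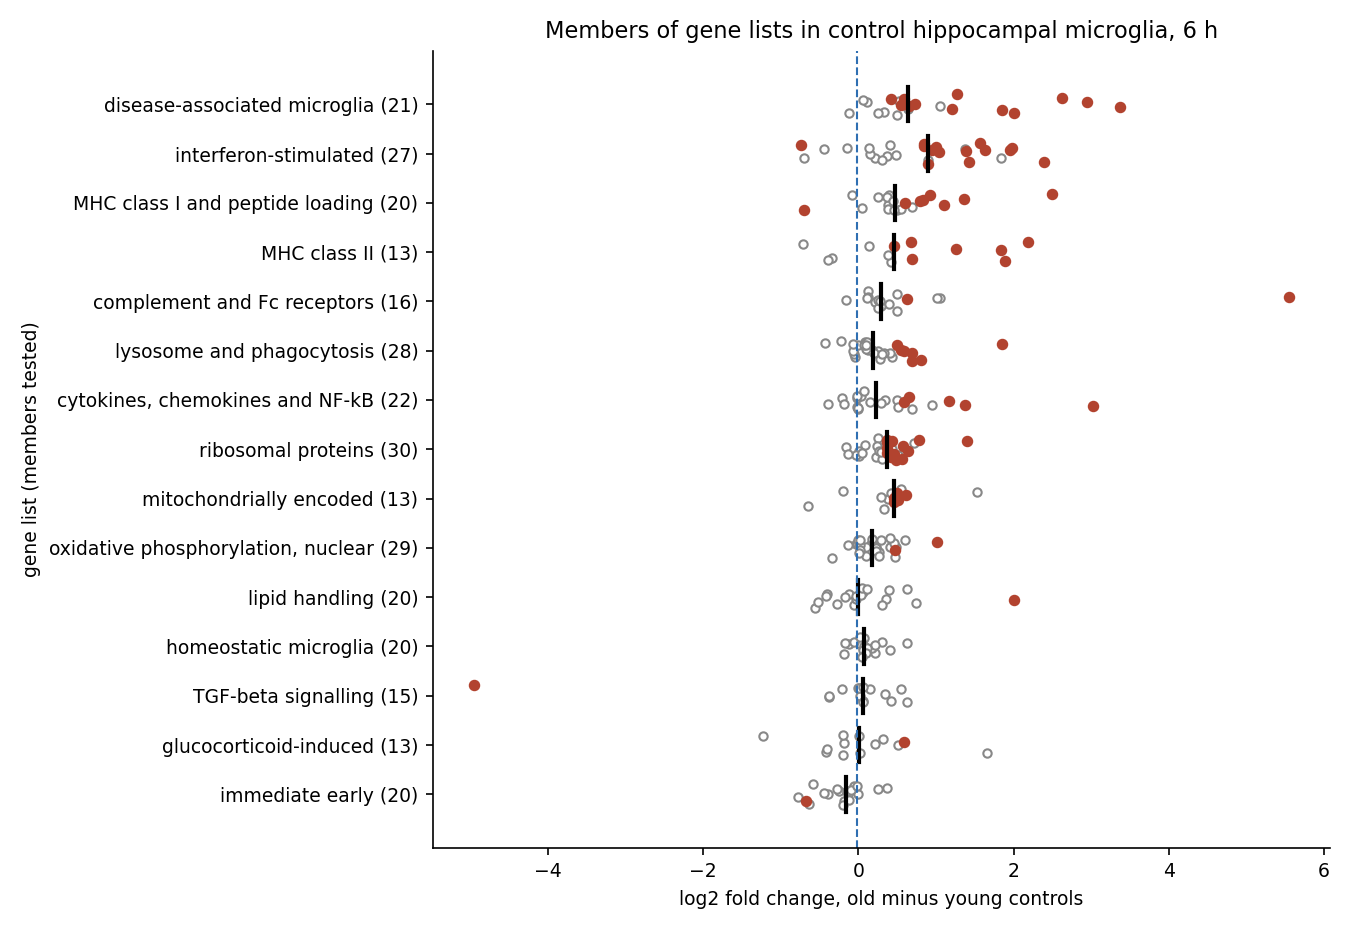
Log2 fold change (old minus young controls, horizontal axis) of the tested members of 15 gene lists (vertical axis, number tested in brackets). Filled points have an unadjusted p below 0.05, black bars are list medians and the dashed line is the median of all genes tested. The interferon-stimulated list has the highest median (0.89) of those drawn and the immediate early list the lowest (-0.16).

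Apoe, the main lipid carrier of the brain, had 279, 174, 264, 143, 446, 753, 666 and 159 CPM in old replicates 1 to 8, against 52.04, 142, 65.2 and 100 CPM in young replicates 1 to 4. Old replicates 5, 6 and 7 were highest, and the lowest old library only just exceeded the highest young one. The difference was 2.01 ± 0.44 and missed the threshold in edgeR (edgeR BH 0.0964), while DESeq2 called it (DESeq2 BH 0.000558). Cst7, cystatin F, an inhibitor of lysosomal proteases, had 4.87, 3.52, 3.00, 6.23, 14.9, 22.3, 21.7 and 14.6 CPM in old replicates 1 to 8, against 0.622, 1.00, 2.17 and 2.05 CPM in young ones. The ages did not overlap, and the difference was 2.94 ± 0.64 (edgeR BH 0.0964). Old replicates 5 to 8, whose sort numbers lay above those of all young animals, stood above the other old animals.

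Clec7a, the beta-glucan receptor dectin-1, ranged from 3.08 to 33.4 CPM in old libraries (median 12.1 CPM), with old replicate 6 highest. The young libraries had 1.66, 4.52, 2.90 and 0.455 CPM, so the groups overlapped (2.62 ± 0.65, edgeR BH 0.198). Lgals3, galectin-3, had 51 counts over the old and 3 over the young libraries (edgeR BH 0.181). The ratio was 11.9 with an exact 95% interval of 3.85 to 59.7, counting error only. The 3 young counts lay in stepped replicate 1 alone and were taken as plain counts. Axl, a receptor for dying cells, had 1.85 ± 0.78, the integrin Itgax 1.05 ± 0.63, and Lpl, lipoprotein lipase, -0.12 ± 0.27. Spp1, osteopontin, stayed under the count filter, with 0.942 to 13.3 CPM in old and 0 to 1.14 CPM in young libraries. Of the tested members, Lyz2, Cst7, Apoe and Lgals3 (4 of 21) had all old libraries above all young ones, against 0.525% of all genes. Axl, Itgax and Lpl, like the list members outside the naming rule given in this and the following paragraphs, were not called.

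**Figure D3:**
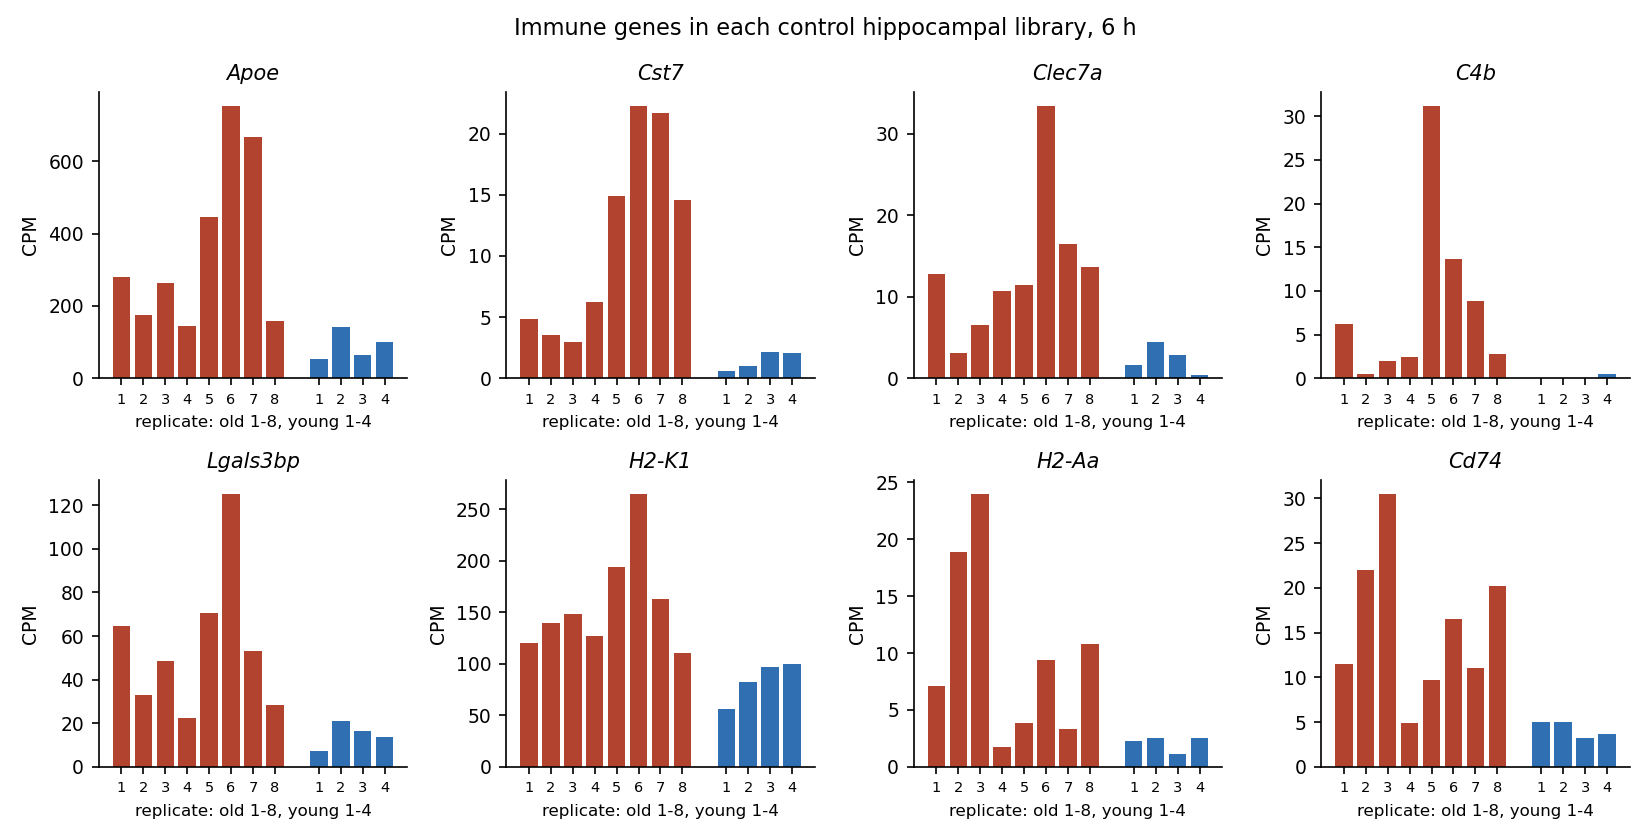
Level in CPM of 8 immune genes in each control hippocampal library of 6 h, old replicates 1 to 8 (red) left of young replicates 1 to 4 (blue). Apoe is highest in old replicate 6 (753 CPM) and C4b in old replicate 5 (31.2 CPM), while H2-Aa (23.97 CPM) and Cd74 (30.5 CPM) are highest in old replicate 3.

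Complement C4b, whose product acts in the classical complement cascade, was uneven in old microglia and close to absent in young ones. The old replicates 1 to 8 had 6.19, 0.440, 1.998, 2.42, 31.2, 13.7, 8.82 and 2.83 CPM. Of the young libraries 3 had none and replicate 4 had 0.455 CPM. Summed counts were 184 in old and 2 in young libraries, a ratio of 64.5 with an exact 95% interval of 17.6 to 536. That interval covers counting error only and leaves out the spread between animals. The 2 young counts lay in stepped replicate 4 alone, and the interval takes them as plain counts. The gene was not called in edgeR (edgeR BH 0.163) and was in DESeq2 (DESeq2 BH 0.00369). Reads shared with its near-identical copy C4a could be split between them. In the list of complement and Fc receptor genes, 0 of 16 tested were called. By unadjusted p 2 were higher and 0 lower, against 4.55% and 3.81% of all genes, and the median was 0.29 with 15 positive. The median without the stepped libraries was 0.04 with 9 of 17 positive, so no direction is given. The C1q chains C1qa, C1qb and C1qc had 0.29, 0.21 and 0.50, and the inhibitory receptor Fcgr2b 0.62 ± 0.23. Complement C3 stayed under the filter.

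Antigen presentation genes were not called in the main edgeR fit, and most had positive values. DESeq2 called Cd74 (DESeq2 BH 0.00327), H2-K1 (0.00709), H2-DMa (0.0244), H2-Aa (0.0269) and B2m (0.0419) higher. Of 20 genes for MHC class I and peptide loading, 0 were called, with a median of 0.48 and 18 positive. By unadjusted p 7 were higher and 1 lower, against 4.55% and 3.81% of all genes. Without the stepped libraries 5 of 20 were higher, with a median of 0.29, and with only the old animals sorted among the young 2 were. H2-K1, a classical class I heavy chain, had 110 to 265 CPM in old libraries (median 144 CPM), against 55.8, 82.8, 97.0 and 99.4 CPM in young libraries. The groups did not overlap, and the difference was 0.92 ± 0.21 (edgeR BH 0.141). B2m, the light chain that class I molecules share, had 260 to 497 CPM in old libraries (median 374 CPM), against 173, 311, 272 and 231 CPM in young ones, with overlap (0.60 ± 0.17, edgeR BH 0.306). H2-D1 had 1.10 ± 0.35, with 1 young library at 13.1 CPM and the others at 82.6 to 118 CPM, and 0.72 without the stepped libraries. Tap2, a pump that carries peptides to class I molecules, had 0.83 ± 0.25. Nlrc5, the transactivator of class I genes, had the largest value of the list (2.50 ± 0.85), and H2-Q4 was the member lower at an unadjusted p below 0.05 (-0.70 ± 0.29). Class I heavy chains are near-identical, so reads may be split among H2-K1, H2-D1 and the H2-Q genes.

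Of 14 MHC class II genes, 13 were tested and 0 were called, with a median of 0.46. By unadjusted p 7 were higher and 0 lower, against 4.55% and 3.81% of all genes. In the fit without stepped libraries 3 of 14 were higher, with a median of 0.37. Cd74, the invariant chain, had 4.84 to 30.5 CPM in old libraries (median 14.0 CPM), against 4.98, 5.02, 3.26 and 3.64 CPM in young ones. Old replicate 4 alone lay within the young range, and the difference was 1.88 ± 0.41 (edgeR BH 0.0964). H2-Aa, an alpha chain of class II, had 1.73 to 23.97 CPM in old libraries (median 8.21 CPM), against 2.28, 2.51, 1.09 and 2.50 CPM in young libraries. It overlapped through old replicate 4 and had 2.18 ± 0.56 (edgeR BH 0.205). The beta chains H2-Eb1 and H2-Ab1 had 1.83 ± 0.68 and 1.26 ± 0.52. Ctss, cathepsin S, which trims the invariant chain, had 892 to 1368 CPM in old libraries and 416, 955, 794 and 575 CPM in young ones (0.69 ± 0.20, edgeR BH 0.322, and 0.34 without the stepped libraries). H2-DMa, which loads peptides on class II, had 0.68 ± 0.19 and overlaps Brd2 on the other strand, whose own value was 0.23. The costimulatory genes Cd86, Cd80 and Cd40 of the same list had -0.34, -0.39 and -0.72. The old animals with the highest H2-Aa and Cd74, replicates 2 and 3, were among the lowest 3 of the 8 for Cst7.

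Interferon-stimulated genes were not called in the main edgeR fit either, and most had positive values. Of the genes named in this paragraph, DESeq2 called Lgals3bp (DESeq2 BH 0.00115), Ifi27l2a (0.0269) and Trex1 (0.0472) higher. Of 36 listed genes, 27 were tested and 0 were called, with a median of 0.89 and 23 positive. By unadjusted p 13 were higher and 1 lower, against 4.55% and 3.81% of all genes. Without the stepped libraries 5 of 32 were higher, with a median of 0.86, and with only the old animals sorted among the young 4 of 23, with a median of 0.35. Lgals3bp, a secreted glycoprotein that binds galectin-3, had 22.5 to 125 CPM in old libraries (median 50.9 CPM), against 7.26, 21.1, 16.3 and 13.9 CPM in young ones. The groups did not overlap (1.96 ± 0.43, edgeR BH 0.0964). Ifi27l2a, an interferon-induced membrane protein, had 1.04 to 21.9 CPM in old libraries (median 8.63 CPM), against 2.70, 1.00, 3.26 and 0.455 CPM in young libraries, with overlap (2.39 ± 0.62, edgeR BH 0.205). Ifitm3, which blocks virus entry, had 2.77 to 13.2 CPM in old libraries, against 1.24, 1.00, 5.79 and 0.910 CPM in young ones (1.63 ± 0.57, edgeR BH 0.426). The transcription factor Irf7 had 1.84 ± 0.91 and Stat2 -0.74 ± 0.27. Trex1, a DNA exonuclease that limits interferon induction by DNA, had 0.88 ± 0.24 (edgeR BH 0.252) and overlaps Atrip on the same strand.

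The promoters of these groups were searched on both strands for the interferon-stimulated response element, written as GAAA, any 2 bases and GAAA, the sequence bound by interferon-activated transcription factors. It was present in 3.44% of all 32851 RefSeq promoters of 300 bases. Of the tested genes of the interferon list 17 had a promoter in the table, and 12 of their 19 promoters (63.2%) held it. It was found in 25% of the promoters of the class I list and in 10% of those of the class II list. The CCAAT box, searched as CCAAT, was in 37.4% of all promoters, in 75% of class I and in 70% of class II promoters. Of the 8 called genes, 7 had a promoter in the table, and Tnfsf13b was the one with the response element (10% of their 10 promoters). The promoters below show the element in a called gene, in an interferon-induced gene and in the class I light chain, and beside them a class II promoter without it. Capitals mark the response element in Tnfsf13b, Ifitm3 and B2m, the CCAAT box or its reverse complement ATTGG in B2m and H2-Aa, and the cAMP response element TGACGTCA in H2-Aa, an element found in 1.79% of all promoters. The windows are chr8:10006383-10006682 on the plus strand for the second listed start of Tnfsf13b, chr7:141010695-141010994 on the minus strand for Ifitm3, chr2:122147437-122147736 on the plus strand for B2m and chr17:34287774-34288073 on the minus strand for H2-Aa, all GRCm38.p6. Each holds 250 bases before and 50 after the start, written 5′ to 3′ along the gene. A match is a description of the letters and no measure of binding.
Tnfsf13b: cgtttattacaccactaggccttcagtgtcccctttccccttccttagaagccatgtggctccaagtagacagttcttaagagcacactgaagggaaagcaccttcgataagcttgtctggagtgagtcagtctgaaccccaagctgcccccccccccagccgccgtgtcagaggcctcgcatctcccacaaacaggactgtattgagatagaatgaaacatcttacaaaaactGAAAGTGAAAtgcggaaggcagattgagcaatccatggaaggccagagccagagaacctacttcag
Ifitm3: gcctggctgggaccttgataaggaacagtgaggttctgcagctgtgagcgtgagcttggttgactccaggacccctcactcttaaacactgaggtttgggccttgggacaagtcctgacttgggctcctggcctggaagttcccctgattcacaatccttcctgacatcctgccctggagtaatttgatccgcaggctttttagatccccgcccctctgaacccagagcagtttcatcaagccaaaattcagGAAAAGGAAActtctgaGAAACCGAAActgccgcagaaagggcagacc
B2m: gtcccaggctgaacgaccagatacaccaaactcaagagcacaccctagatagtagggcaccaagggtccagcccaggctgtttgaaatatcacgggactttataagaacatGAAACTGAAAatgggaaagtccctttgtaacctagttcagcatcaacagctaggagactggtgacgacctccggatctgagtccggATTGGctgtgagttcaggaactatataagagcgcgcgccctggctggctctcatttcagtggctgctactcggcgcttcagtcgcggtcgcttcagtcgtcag
H2-Aa: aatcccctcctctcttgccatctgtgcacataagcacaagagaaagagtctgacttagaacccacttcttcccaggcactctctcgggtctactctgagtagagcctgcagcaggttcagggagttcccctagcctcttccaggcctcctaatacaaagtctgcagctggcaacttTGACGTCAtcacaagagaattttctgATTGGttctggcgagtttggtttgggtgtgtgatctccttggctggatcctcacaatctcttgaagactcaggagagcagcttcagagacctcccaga

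Lysosomal genes had mostly positive values, less so without the stepped libraries, and the cause of this was not tested. Of 28 tested of 31, 0 were called, with a median of 0.19 and 22 positive. By unadjusted p 7 were higher and 0 lower, against 4.55% and 3.81% of all genes. When those libraries were left out, 0 of 28 were higher, the median was 0.04 and 15 were positive. Among the 7 were the proteases Ctsb (0.59 ± 0.23), Ctsz (0.55 ± 0.20) and Ctsh (0.50 ± 0.18) and the cholesterol carrier Npc2 (0.81 ± 0.26). Cathepsin D (Ctsd) had 0.25 ± 0.19. In the lipid handling list, 10 of 20 tested genes were positive and 10 negative, and Apoe was the one member at an unadjusted p below 0.05.

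Ribosomal protein genes and mitochondrially encoded genes mostly had positive values. Of 30 ribosomal protein genes, 0 were called and 27 were positive, with a median of 0.37. By unadjusted p 13 were higher and 0 lower, against 4.55% and 3.81% of all genes. Without the stepped libraries, which leaves 2 young controls, 2 of the 30 were higher, with a median of 0.25 and 27 still positive. Rps6 had 91.0 to 116 CPM in old libraries (median 107.1 CPM), against 83.8, 64.2, 76.4 and 58.5 CPM in young ones, with no overlap (0.57 ± 0.15, edgeR BH 0.241). Rpl13 had 91.0 to 119 CPM in old libraries, against 13.9, 46.2, 87.6 and 18.4 CPM in young libraries. The stepped replicates 1 and 4 had the lowest Rpl13, and its difference of 1.40 ± 0.39 was 0.70 without them. Rpl31, outside this list, had 27.8 to 53.9 CPM in old libraries and 10.6, 20.6, 25.7 and 10.2 CPM in young ones (1.32 ± 0.30, and 0.83 without the stepped libraries). It overlaps Tbc1d8 on the other strand (0.74), and ribosomal protein genes share reads with pseudogenes. Of the 13 mitochondrially encoded genes, 0 were called, 5 were higher and 0 lower by unadjusted p, and the median was 0.45. By unadjusted p, 1 of the 13 was higher without the stepped libraries and 2 with only the old animals sorted among the young (medians 0.40 and 0.45). Their share of the counts outside the largest models was 0.491% ± 0.0439 in old and 0.366% ± 0.0899 in young libraries (SD, n = 8 and 4, exact permutation p = 0.0101, BH 0.162 over the measures tested, two-sided). As a share of all counts the 2 ages differed by -0.00306 percentage points, so this direction depends on the scale. Of 29 nuclear genes of oxidative phosphorylation, 2 were higher and 0 lower by unadjusted p (median 0.18).

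Homeostatic genes stayed close together. Of the 20, 0 were called and 0 reached an unadjusted p below 0.05. P2ry12 had 401 to 751 CPM in old libraries (median 550.0 CPM), against 438, 661, 729 and 573 CPM in young libraries, and the difference of -0.12 ± 0.19 was smaller than its error. Tmem119, a microglial surface protein, had 0.21 ± 0.19 and the fractalkine receptor Cx3cr1 0.06 ± 0.21. The median of the list was 0.07 with 16 positive, and -0.16 with 2 positive without the stepped libraries, so no direction is given. Fcrls, the receptor used in the sort, had 424 CPM in old and 477 CPM in young libraries on average (-0.17 ± 0.19).

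Cytokine genes were uneven. Of 22 tested of 30, 0 were called, with a median of 0.22. By unadjusted p 5 were higher and 0 lower, against 4.55% and 3.81% of all genes. Leaving out the stepped libraries, 1 of 26 was higher, with a median of 0.07. The chemokines Ccl2 (1.37 ± 0.42) and Cxcl16 (1.17 ± 0.37) were among the 5. Tnf had 5.18 to 22.9 CPM in old libraries and 1.45, 8.53, 14.1 and 10.7 CPM in young ones, with overlap (0.94 ± 0.49, edgeR BH 0.625). Ccl3 and Ccl4, chemokines that respond quickly to cell handling, had -0.21 ± 0.40 and -0.18 ± 0.45, and both turned positive without young replicate 4 (0.23 and 0.22). Il1b stayed under the filter, with 34 counts over the old and 2 over the young libraries. Immediate early genes, which answer cell stimulation within minutes, had a median of -0.16, with 2 of 20 positive, 0 called and Klf4 (-0.68 ± 0.30) the one at an unadjusted p below 0.05. With only the old animals sorted among the young the median was 0.02 with 10 of 20 positive.

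Genes of senescence and of the stress hormone response gave no call. Of 9 senescence genes tested of 17, 0 reached an unadjusted p below 0.05. Cdkn1a, the cell cycle inhibitor p21, had 7.48 to 22.9 CPM in old libraries and 23.4, 8.03, 22.5 and 22.5 CPM in young libraries (-0.40 ± 0.35). Cdkn2a, which encodes p16, had 1 count in 1 old library and none in the others, so its level was under what this depth can show. The glucocorticoid targets Fkbp5 (-0.19 ± 0.31) and Tsc22d3 (0.22 ± 0.25) differed by less than their error, and the list had 1 of 13 tested at an unadjusted p below 0.05, Nfkbia. In the lists of cell cycle, circadian clock, and heat shock and unfolded protein genes, 1 of 19, 1 of 14 and 1 of 16 tested were higher at that level. None was lower or called. These counts are near the 4.55% of all genes that were higher at that level.

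Further genes with the smallest p that were not called were of mixed function. Lat2, an adaptor of immune receptors, had 33.0 to 52.7 CPM in old libraries, against 19.7, 26.1, 25.7 and 18.4 CPM in young ones (0.88 ± 0.21, edgeR BH 0.144), and Lag3, a ligand of MHC class II, had 120 to 159 CPM, against 57.4, 103, 108 and 85.8 CPM (0.62 ± 0.19). The groups did not overlap in either gene. The ubiquitin ligase Bfar (1.55), the ribosome assembly factor Pes1 (1.35), the protease inhibitor Spint1 (1.01) and the mitochondrial magnesium channel Mrs2 (2.02) were also on the higher side. Mrs2 overlaps Gpld1 on the other strand (1.74), as Lat2 does Rfc2 (0.04) and Txnip does Gm15441 (-0.51), and whether counting used strand is not given. On the lower side stood Txnip, an inhibitor of thioredoxin, with 46.7 to 114 CPM in old libraries and 169, 144, 154 and 148 CPM in young libraries (-0.76 ± 0.21, no overlap), the transcription factor Nfic (-1.35), and the histone genes Hist1h2ap (-0.84) and Hist1h1c (-0.86). Dlg4, a scaffold known from synapses, had 17.7 to 25.5 CPM in old libraries and 90.6, 28.1, 26.8 and 31.9 CPM in young ones. Its value of -1.09 was -0.38 without the stepped libraries, of which young replicate 1 is the highest.

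Summed markers of other cell types did not differ past the threshold. The oligodendrocyte list summed to 264 to 415 CPM in old and 181 to 335 CPM in young libraries (exact permutation p = 0.0263, BH 0.175), with 5 of 10 members tested. Most of this was Trf, transferrin (311 CPM in old and 217 CPM in young libraries on average, 0.52 ± 0.22), while Mog was at 0 in all 12 libraries. T and NK cell markers, with 4 of 13 tested, summed to 6.59 to 21.2 CPM in old and 14.5 to 22.1 CPM in young libraries (exact permutation p = 0.0768). Border-associated macrophage markers, with 3 of 10 tested, summed to 138 to 317 CPM in old and 229 to 300 CPM in young libraries, most of it Stab1. Choroid plexus markers varied most, at 31.6 to 551 CPM in old and 45.96 to 183 CPM in young libraries. Old replicates 1 to 4 had 551, 365, 515 and 298 CPM. Old replicates 5 to 8, with sort numbers above those of all young animals, had 31.6, 43.9, 40.4 and 84.8 CPM. The smallest p that these permutations allow is 0.00202, and their part in the gene results was not tested.

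Beside other animals, the genes that rose kept positive values and those that fell did not all stay negative. After surgery edgeR called 0 of the same 13703 genes between old and young (0%, 917 or 6.69% by unadjusted p, DESeq2 8 higher and 7 lower). The surgery mice are other animals than the controls, and old replicates 5 and 6 of them gave stepped libraries as well. Values of 1 were found in 5.02% and 24.7% there, and the largest models held 49.8% and 67.2% of counts. Ildr2 had 2.09 ± 0.36 there, Tnfsf13b 1.23 ± 0.33, Upk1b 1.01 ± 0.29, Naalad2 0.94 ± 0.35 and Lyz2 0.75 ± 0.24. Dag1 had -0.58 ± 0.31, Upf3b 0.11 ± 0.30 and Tgfb2 1.65 ± 1.04. The difference of the age effects, controls minus surgery, called 0 genes in edgeR (0%, 1273 or 9.29% by unadjusted p, DESeq2 7 higher and 5 lower). The largest among the called genes were -6.60 ± 1.44 for Tgfb2 (edgeR BH 0.208) and -1.52 ± 0.41 for Upf3b (edgeR BH 0.406).

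In controls of 48 h, other animals again, edgeR called 10 of 11985 genes (0.0834%), 3 higher (0.025%) and 7 lower (0.0584%) in old microglia. Upk1b was called in both, 12.5% of the genes called at 6 h and 10% of those at 48 h. It had 58.6 ± 5.98 CPM in old and 18.5 ± 10.1 CPM in young controls of 48 h (SD, n = 8 and 4) and rose by 1.66 ± 0.28 (edgeR BH 0.00432). Lag3 was also called at 48 h (0.87, edgeR BH 0.026). Ildr2 (1.57 ± 0.35), Naalad2 (1.42 ± 0.40), Tnfsf13b (1.205 ± 0.34) and Lyz2 (0.39 ± 0.26) were positive and not called. Upf3b had -0.44 ± 0.38 and was not called either. Apoe stood at 0.12 ± 0.30 there and Cst7 at 0.15 ± 0.46. Tested against each other, the age effects at 6 h and 48 h differed in 2 of 14510 genes (0.0138%), Dag1 and the pseudogene Tmem181b-ps, which was named after its value was seen. Dag1 had 8.20 ± 3.02 CPM in old and 4.65 ± 2.69 CPM in young controls of 48 h, and its age effect at 6 h lay -2.37 ± 0.44 from that at 48 h (edgeR BH 0.0147). Neither gene was called without young control replicate 1 of 6 h, when 0 genes were called. For Apoe the same difference was 1.91 ± 0.53 and for Cst7 2.80 ± 0.78, both with an edgeR BH of 0.344.

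**Figure D4:**
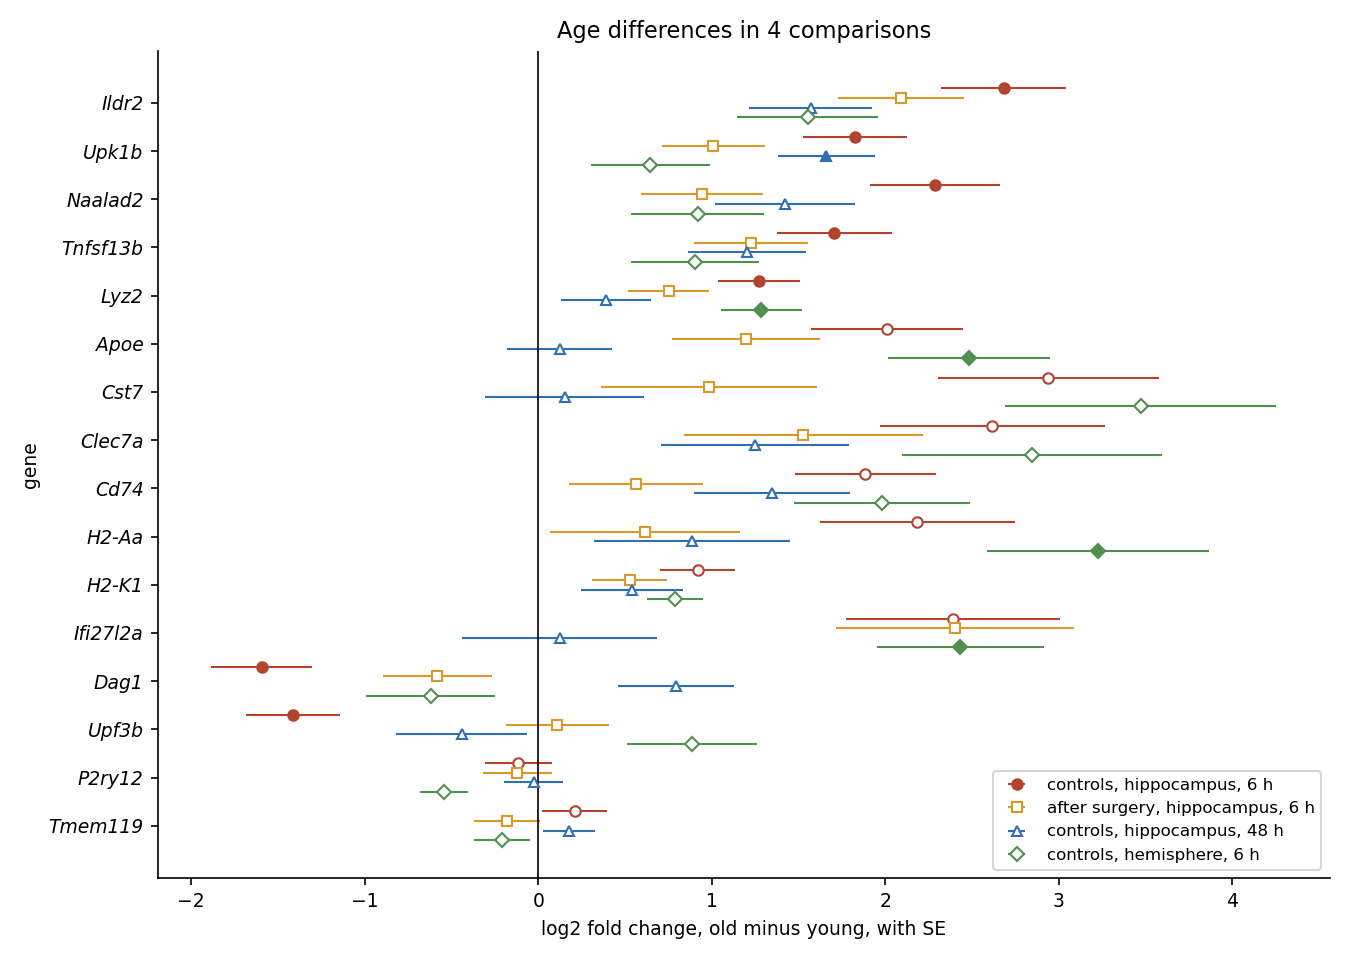
Log2 fold change between old and young mice with its SE (horizontal axis) for 16 genes (vertical axis) in 4 comparisons, from controls in hippocampus at 6 h (circles), after surgery (squares), controls at 48 h (triangles) and controls in hemisphere at 6 h (diamonds). Filled symbols were called. Dag1, Upf3b and Tmem119 change side, P2ry12 lies below 0 in all 4, and every other gene drawn lies above 0 in all 4.

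The hemispheres of the same 12 animals gave 10 called genes of 12760 (0.0784%), 8 higher (0.0627%) and 2 lower (0.0157%) in old microglia. Lyz2 was shared, 12.5% of the hippocampal and 10% of the hemispheric calls, with 88.7 to 191 CPM in old and 42.1 to 65.6 CPM in young hemispheres (1.28 ± 0.23, edgeR BH 0.0417). Called there and not in the hippocampus were Apoe (2.48), H2-Aa (3.23), Ifitm3 (2.62) and Ifi27l2a (2.43), among others. Tested within animals, the age effect in hippocampus minus that in hemisphere gave 0 calls of 13603 genes in edgeR (0%, 1102 or 8.1% by unadjusted p, DESeq2 13 higher and 6 lower), so for no gene was the age difference shown to differ between the regions by this test. Tgfb2 had -6.60 ± 1.27 in it, Upf3b -2.38 ± 0.45 (both with an edgeR BH of 0.294) and Upk1b 1.23 ± 0.31 (edgeR BH 0.576). Tgfb2 averaged 2.07 CPM in old and 0.437 CPM in young hemispheres, and 0.704 CPM in old and 0.324 CPM in young controls of 48 h, so the high young level was seen in neither. The old animals were not high in the same order in both regions. C4b was highest in old replicate 5 in the hippocampus (31.2 CPM, against 2.99 CPM in its hemisphere) and in old replicate 3 in the hemisphere (18.1 CPM, against 1.998 CPM in its hippocampus). Apoe was highest in old replicate 6 in both (753 CPM in hippocampus, 707 CPM in hemisphere).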

How the data were processed

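Microglia RNA was sequenced after Smart-seq2 amplification, per the labels' protocols. The values are the deposited estimated counts per gene, made on the mouse build mm10, per the submitters' processing notes, which also list DESeq2 1.36.0 and R 4.2.1. Which aligner and counter were used, and whether counting used strand, was not given in the sources used here. Values were rounded to whole numbers. Of 54532 gene identifiers, 54495 matched the gene annotation.

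Genes were kept by filterByExpr (minimum count 10), scaled by TMM and tested with edgeR 4.0.16 (robust quasi-likelihood, two-sided, BH below 0.05) in R 4.3.3, in 1 fit over the 4 groups of the 6 h hippocampus table. DESeq2 1.42.0, limma 3.58.1 (voom), other scalings, filters and sample sets were alternatives. The procedure was tested on simulated data. Cell marker sums were compared by an exact two-sided permutation test over all arrangements of the 12 libraries, on 20 measures. p-values measure the spread between animals. Intervals cover counting error only and take the values of stepped libraries as plain counts.

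The text names called genes with a mean log2 CPM not under 4 (up to 12 per direction), filled to 24 with the smallest p, called list members and a set of standard genes, of which 1 is not reported here. Other genes are list members shown as examples, chosen after their values were seen. The members and lists were chosen with earlier results of these data known. Old and young controls of the same replicate number had neighbouring sort numbers (40 and 42, 44 and 46, 48 and 50, 52 and 54). Old and young libraries correlated at 0.728 to 0.877. After the mean of each age was subtracted per gene, libraries of the same number correlated at -0.231, 0.209, 0 and 0.056. These are too few values to settle whether the numbers pair the animals. The main fit did not use the numbers. With them as a block, 2 genes were called, and Ildr2 was the one kept of the 8.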

Additional observations from a re-analysis of the deposited data

Results flagged for a closer look

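In 13 of 142 groups of 4 or 8 libraries, 1 library lay far from the others by Dixon's criterion. Chance gives about 1 in 20 for normally distributed values, which groups of few counts are not. A group with counts in 1 library alone, as Lgals3 and C4b in young libraries, is always flagged. The number of flags is therefore not read as an excess over chance. Old replicate 6 stood out for Lgals3bp (125.1 CPM), Clec7a (33.44 CPM), Itgax (10.07 CPM) and the summed astrocyte markers (99.23 CPM), and old replicate 5 for C4b (31.22 CPM). Among young libraries, replicate 1 stood out for Dlg4 (90.6 CPM), Lgals3 (0.622 CPM) and the share of Malat1 (0.7811% of counts outside the largest models), and replicate 2 for Cdkn1a (8.028 CPM). Young replicate 3 stood out for Mrs2 (13.04 CPM), Ifitm3 (5.793 CPM) and H2-Aa (1.086 CPM), and young replicate 4 for C4b (0.455 CPM, with none in the others). The age effect on Dag1 differed between 6 h and 48 h, by -2.3668 on the log2 scale.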

How the results depend on the processing

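The count of calls between old and young controls (5 higher, 3 lower) was 46 and 14 with DESeq2, 12 and 7 with no filter, 3 and 0 with only the 2 control groups in the fit, 1 and 1 with the replicate block, and 0 and 0 without the stepped libraries or with only the old animals sorted among the young. Leaving out 1 library gave 1 to 11 higher and 0 to 8 lower. For controls minus surgery DESeq2 gave 7 and 5, and no filter 2 higher. For 6 h minus 48 h DESeq2 gave 8 and 5, no filter 0 and 0, and leaving out 1 library 0 to 7 and 0 to 3. For hippocampus minus hemisphere these were 13 and 6, 70 and 45, and 0 to 8 and 0 to 2. After surgery DESeq2 gave 8 and 7 and no filter 1 and 2. DESeq2 gave 11 and 11 at 48 h and 36 and 11 in the hemisphere. DESeq2 and no filter for these last 3 comparisons were chosen after seeing the data. The causes were not tested. Without the stepped libraries the log2 values reversed to -0.092 for Tmem119, -0.20 for Cx3cr1, 0.41 for Lpl and 0.0018 for Ccl4. With the sort-matched old animals they reversed to 0.0339 for P2ry12, 0.0516 for Ccl3, 0.13 for Ccl4 and 0.037 for Fkbp5. Under the replicate block Ccl3 had 0.18 and Ccl4 0.11. Leaving out 1 library gave -0.10 to 0.24 for Cx3cr1, -0.28 to 0.20 for Lpl, -0.51 to 0.23 for Ccl3, -0.41 to 0.22 for Ccl4 and -0.31 to 0.021 for Fkbp5. The same gave differences of -343450 to 197550 in total counts and, in summed CPM, of -24.1 to 16.0 for neutrophil, -10.1 to 16.8 for B cell, -13.3 to 4.13 for astrocyte, -3.66 to 0.27 for endothelial, -1.94 to 0.737 for pericyte and -704.8 to 3113 for homeostatic markers. The mitochondrial share differed by -0.00306 percentage points over all counts. The remaining alternatives kept the direction of each named gene. Depth limits genes of few counts, such as Cdkn2a and Il1b.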
